A study of Homo sapiens with 38 samples.

Results

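The 36 autophagy and lysosome genes described here are the machinery that builds autophagosomes, the transcription factors TFEB and TFE3, and proteins of the lysosome. They were taken as a list of gene symbols and matched to the Ensembl identifiers of the count table. Of the 36, 34 genes were analysed, among 18011 genes in all, and each of the 34 passed the filter on low counts at both times. GABARAP and CTSL were not analysed here.

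The study used 6 human cell lines from diffuse large B-cell lymphoma, a tumour of mature B cells (OCILY1, PFEIFFER, SUDHL4, SUDHL6, TOLEDO and WSUDLCL2) and lists 38 RNA samples, of which 37 libraries were analysed, with totals from 3.19 to 8.92 M counts. At 6 h there were 6 libraries with DMSO (the solvent alone), 6 with pracinostat and 5 with vorinostat, the last without SUDHL6. At 14 days there were 5 lines, again without SUDHL6, each with pracinostat, with vorinostat and with 2 DMSO cultures named DMSOP and DMSOV, read here from their titles as the partners of pracinostat and of vorinostat. A second vorinostat library of SUDHL4 at 14 days was not analysed here. All the groups are established tumour lines, and the labels name no genetic change and no dose. Pracinostat and vorinostat are both hydroxamic acids that inhibit histone deacetylases, vorinostat with a linear aliphatic chain that ends in an anilide and pracinostat with a benzimidazole core. The line was the replicate, and the p-values set the mean change against how far changes within a line varied from line to line. That spread was estimated jointly over all groups in a fit, both drugs and their solvent cultures. Differences in level between lines were fitted and do not enter that spread. Nothing in the labels says that the libraries came from separate cultures, so the spread may include technical spread.

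In autophagy, a membrane grows around cytoplasm, closes into an autophagosome and fuses with the lysosome, where acid hydrolases digest the contents. The ULK1 kinase and the BECN1 lipid kinase complexes start the membrane, and small proteins of the ATG8 family (the LC3 and GABARAP proteins) are attached to its lipids and bind cargo receptors such as SQSTM1. TFEB and TFE3 are related transcription factors that bind the palindrome CACGTG and its longer form TCACGTGA near many lysosomal genes, and their activity is known to be set largely by phosphorylation and by entry into the nucleus, neither of which RNA counts measure.

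More of the genes rose than fell within 6 h of either drug, and TFEB was among those that fell. At 6 h pracinostat raised 18 of the 34 genes and lowered 4, and vorinostat raised 21 and lowered 3. A gene is said here to rise or fall where edgeR's quasi-likelihood test, with cell line as a block, gave a Benjamini-Hochberg adjusted p under 0.05 over all genes tested. The background was wide: pracinostat changed 40.1% of the 13177 genes tested at 6 h (21.2% higher and 18.9% lower), and vorinostat changed 43.9% (23.1% higher and 20.9% lower). The median log2 fold change of the 34 genes was 0.48 with pracinostat, against 0.03 over all genes tested, and 0.55 with vorinostat, against 0.02. Both drugs were compared with the same DMSO libraries at 6 h, so the 2 sets of values are not independent. In the deposited normalized table, the columns of these libraries carry the name DMSOV in 4 lines and DMSOP in TOLEDO and PFEIFFER, with 1 such library a line, and they were used as 1 solvent group, as their titles give it.

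At 14 days the counts were smaller. With pracinostat 3 of the 34 genes rose and 0 fell, against 22.6% of 14037 genes changed (12.3% higher and 10.2% lower), and with vorinostat 16 rose and 1 fell, against 37.6% (20.4% higher and 17.2% lower). The median log2 fold change was 0.25 for pracinostat, beside 0.07 over all genes, and 0.46 for vorinostat, beside 0.12. Both counts depended on the solvent culture used: with pracinostat 11 genes changed against DMSOV and 12 against the mean of both DMSO sets, and with vorinostat 11 changed against DMSOP. Over all 14037 genes the pracinostat counts were 4120 and 5008 in place of 3167, and the vorinostat count was 4720 in place of 5274. Leaving out SUDHL4 or TOLEDO took the vorinostat count of the 34 genes to 10, beside 3961 of 14705 and 4102 of 14644 genes. Leaving out PFEIFFER took the pracinostat count of the 34 to 1, beside 1424 of 13802 genes. Fits of only the 2 groups compared gave 5 of the 34 with pracinostat, beside 1950 of 12594 genes. With vorinostat they gave 7, beside 2680 of 12059 genes. Between the 2 DMSO sets themselves, 0 of the 34 genes and 0% of all genes differed, with 0 of the 34 at an unadjusted p under 0.05 and 0 by DESeq2.

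**Figure D1:**
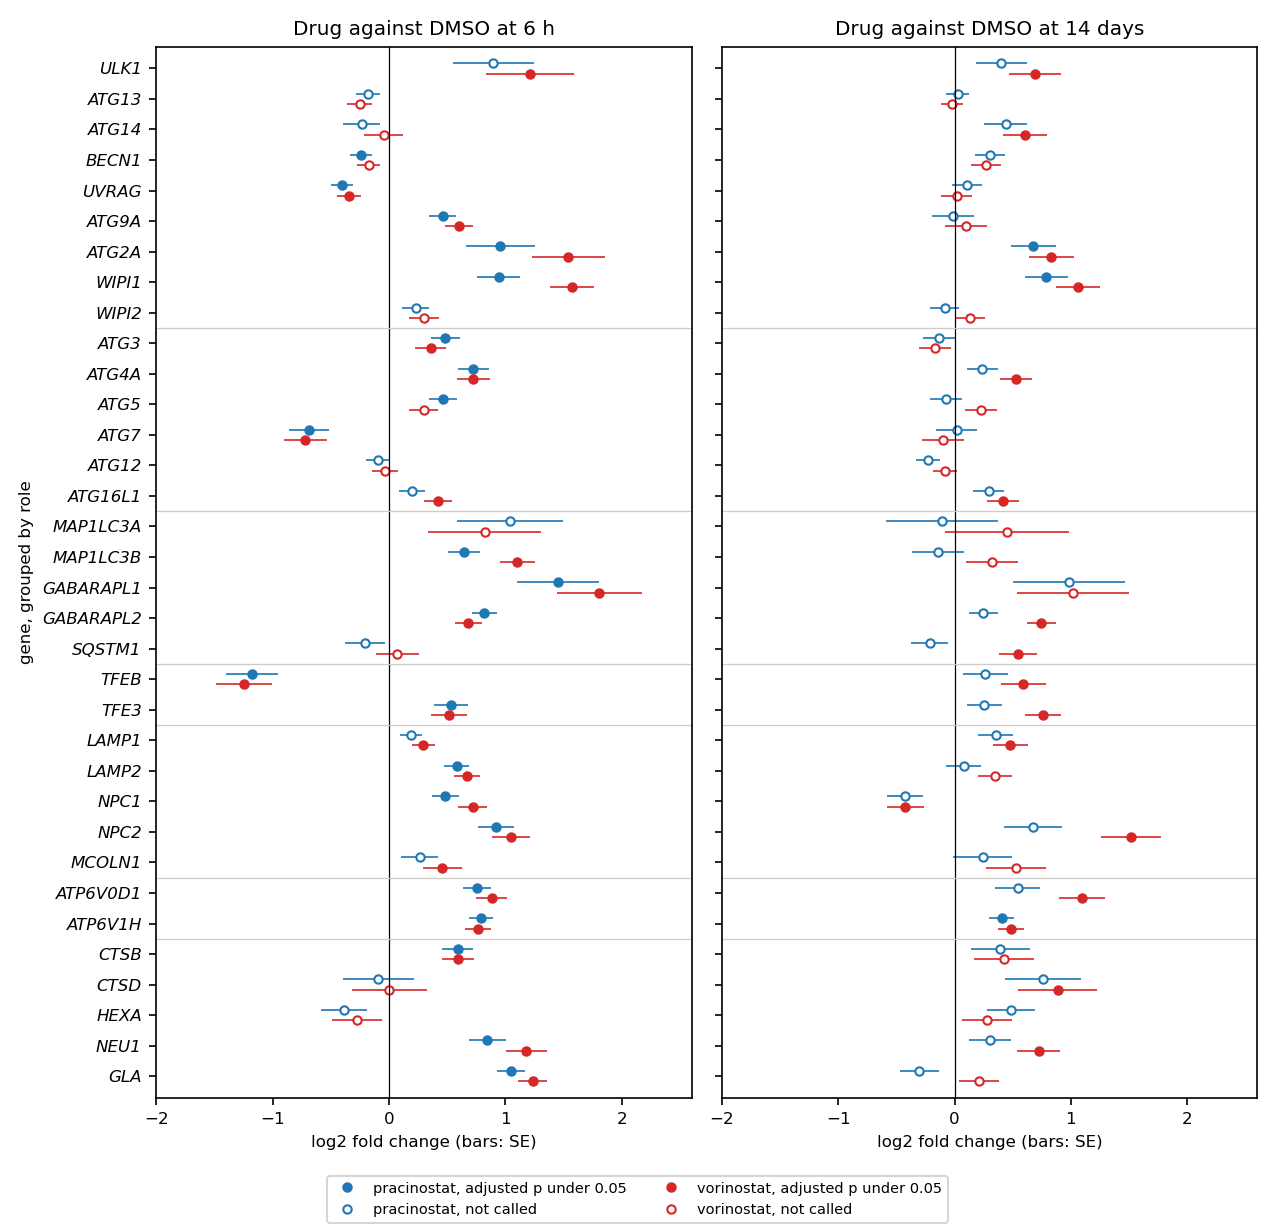
Log2 fold change of each of the 34 genes (horizontal axis) with its standard error (bars), for pracinostat (blue) and vorinostat (red) against DMSO at 6 h (left) and 14 days (right); filled points have an adjusted p under 0.05 and grey lines separate roles. At 6 h most points lie right of 0 and TFEB lies farthest left, at -1.18 and -1.25; at 14 days pracinostat has 3 filled points.

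TFEB and TFE3 moved in opposite directions at 6 h. TFEB (ENSG00000112561, chr6:41683978-41736259 of GRCh38, minus strand) stood in the DMSO libraries at a lowest value of 22.8 CPM, the unit of every level given here (reads of a gene per M reads after TMM scaling), in TOLEDO, a median of 54.4 and a highest value of 137 in SUDHL6. With pracinostat at 6 h the lowest value was 17.4 CPM, the median 21.4 and the highest 50.9. The 5 vorinostat libraries held 20.7 CPM in OCILY1, 12.8 in PFEIFFER, 28.2 in SUDHL4, 16.4 in TOLEDO and 29.8 in WSUDLCL2. Every line was lower with either drug than with DMSO, although the groups overlapped, since DMSO in TOLEDO lay within the range of the drug libraries. TFEB fell by 1.18 on the log2 scale with pracinostat (SE 0.22, adjusted p = 0.000764) and by 1.25 with vorinostat (SE 0.24, adjusted p = 0.000706), and both calls held without any 1 line.

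At 14 days TFEB was not called lower with either drug. The DMSOV libraries held 23.4 CPM of TFEB in OCILY1, 25.6 in PFEIFFER, 54.7 in SUDHL4, 20.9 in TOLEDO and 45.2 in WSUDLCL2, and the vorinostat libraries held 21.7, 42.1, 75.5, 27.8 and 107 CPM in the same order. Vorinostat was higher in 4 of these lines and slightly lower in OCILY1, with overlapping groups. TFEB rose by a log2 fold change of 0.59 with vorinostat (SE 0.19, adjusted p = 0.0232). This call was lost without SUDHL4, TOLEDO or WSUDLCL2, where the adjusted p reached 0.123, as well as with scaling by library totals and with DMSOP as the control. Pracinostat gave a log2 fold change of 0.27 (SE 0.19, adjusted p = 0.323). The change in effect from 6 h to 14 days was tested as an interaction and came to 1.42 for pracinostat (SE 0.31, adjusted p = 0.00199) and 1.81 for vorinostat (SE 0.32, adjusted p = 0.000207), and both of these calls held without any 1 line.

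TFE3 (ENSG00000068323, chrX:49028726-49043486, minus strand) had a lowest, median and highest level of 18.0, 22.9 and 36.3 CPM in DMSO at 6 h and of 22.4, 34.3 and 60.6 CPM with pracinostat. With vorinostat at 6 h it stood at 32.2 CPM in OCILY1, 36.3 in PFEIFFER, 19.2 in SUDHL4, 67.0 in TOLEDO and 33.7 in WSUDLCL2. TOLEDO was the highest line in every group, and all lines were higher with either drug than with DMSO. TFE3 rose by a log2 fold change of 0.54 with pracinostat (SE 0.15, adjusted p = 0.0084) and 0.52 with vorinostat (SE 0.16, adjusted p = 0.0132), the latter being lost without TOLEDO (adjusted p = 0.0752). At 14 days it rose with vorinostat by 0.76 (SE 0.15, adjusted p = 0.00126), a call that held without any 1 line, and the pracinostat value was 0.26 (adjusted p = 0.226). The interaction with time was not called for TFE3 with either drug, at -0.30 for pracinostat (adjusted p = 0.331) and 0.21 for vorinostat (adjusted p = 0.51).

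**Figure D2:**
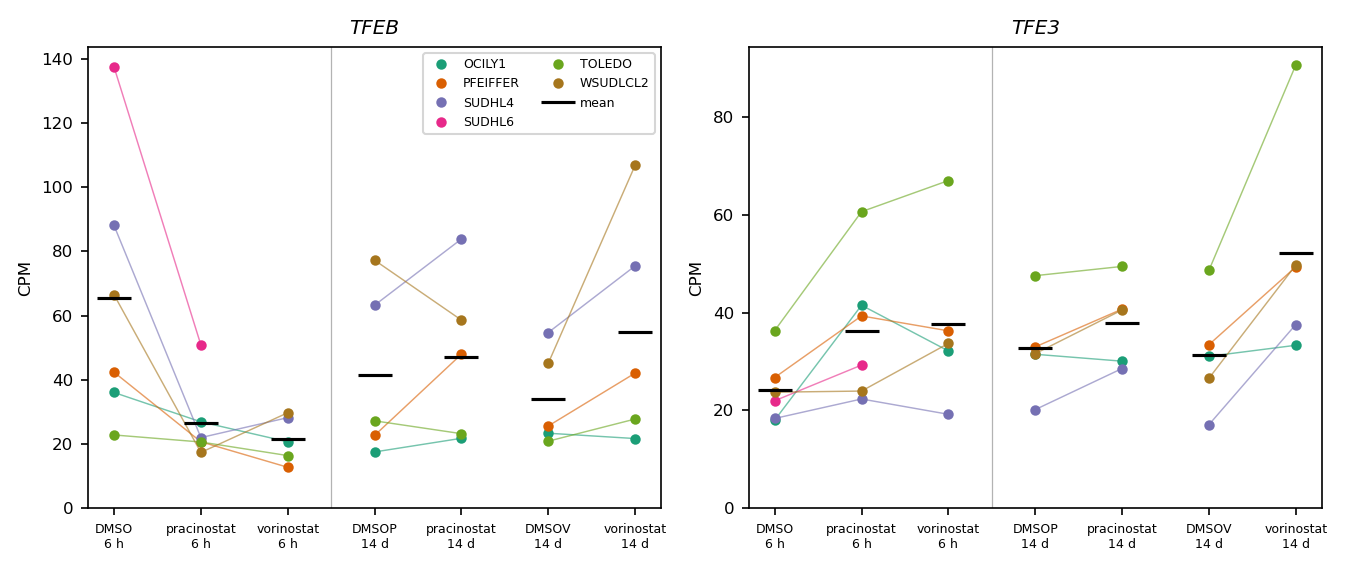
CPM of TFEB (left) and TFE3 (right) in every library; each point is 1 library, coloured by line, thin lines join libraries of the same line at the same time (DMSO to drug at 14 days), and black bars are group means. All 6 lines have less TFEB with drug than with DMSO at 6 h, whereas TFE3 lies between 18.0 and 36.3 CPM in DMSO and reaches 67.0 with vorinostat at that time.

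Among the genes that start and extend the membrane, WIPI1 and ATG2A rose with both drugs at both times. WIPI1, which binds the lipid made by the BECN1 complexes (ENSG00000070540, chr17:68420948-68457513, minus strand), had a lowest, median and highest level of 4.45, 9.37 and 22.6 CPM in DMSO at 6 h and of 8.49, 17.7 and 53.1 CPM with pracinostat. With vorinostat it reached 75.0 CPM in OCILY1, 24.6 in PFEIFFER, 32.0 in SUDHL4, 22.7 in TOLEDO and 18.8 in WSUDLCL2. OCILY1 was the highest line in every group, and each line was higher with either drug at either time. The log2 fold change was 0.94 with pracinostat (SE 0.18, adjusted p = 0.000786) and 1.57 with vorinostat (SE 0.19, adjusted p = 1.2e-05) at 6 h, and 0.79 (SE 0.18, adjusted p = 0.00743) and 1.06 (SE 0.19, adjusted p = 0.000528) at 14 days. WIPI1 was the one gene of the 34 whose 4 calls all held without any 1 line. Its exons overlap those of ARSG on the other strand, and the strand setting of the counting is not given, so a part of its reads could belong to that gene.

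ATG2A, a lipid-transfer protein that feeds the growing membrane (chr11:64894546-64917248, minus strand), split the lines with pracinostat at 6 h. OCILY1 went from 26.7 CPM in DMSO to 78.5 with pracinostat, PFEIFFER from 16.1 to 57.1 and TOLEDO from 22.8 to 103. SUDHL4 held 25.0 CPM in both libraries, SUDHL6 went from 27.4 to 24.9 and WSUDLCL2 from 18.0 to 17.6. With vorinostat, SUDHL4 reached 41.8 CPM and WSUDLCL2 64.3, and every one of the 5 vorinostat libraries lay above all 6 DMSO libraries. Pracinostat raised ATG2A by a log2 fold change of 0.96 (SE 0.30, adjusted p = 0.0181), a call lost without OCILY1, PFEIFFER or TOLEDO (adjusted p up to 0.0785), and vorinostat raised it by 1.54 (SE 0.31, adjusted p = 0.00107). At 14 days it rose by 0.68 with pracinostat (SE 0.19, adjusted p = 0.021), lost without PFEIFFER or WSUDLCL2 (adjusted p up to 0.133), and by 0.83 with vorinostat (SE 0.20, adjusted p = 0.00382).

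The other initiation genes were called in fewer comparisons. ULK1, the kinase that starts autophagy, rose with vorinostat by 1.21 at 6 h (SE 0.38, adjusted p = 0.0176), a call lost without OCILY1 (adjusted p = 0.0694), and by 0.69 at 14 days (SE 0.22, adjusted p = 0.0226), lost without SUDHL4 or TOLEDO (adjusted p up to 0.111). The pracinostat values of ULK1 were 0.90 at 6 h (adjusted p = 0.0534, and 0.0059 without WSUDLCL2) and 0.40 at 14 days (adjusted p = 0.193). ATG9A, which sits in the vesicles that seed the membrane, rose by 0.46 with pracinostat (adjusted p = 0.00528) and by 0.60 with vorinostat (adjusted p = 0.00103) at 6 h and was not called at 14 days.

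UVRAG, a BECN1 partner in endosomal and late autophagic steps, fell by 0.40 with pracinostat (SE 0.10, adjusted p = 0.0034) and by 0.34 with vorinostat (SE 0.10, adjusted p = 0.0124) at 6 h. The vorinostat call of UVRAG was lost with scaling by library totals. BECN1 itself fell by 0.24 with pracinostat at 6 h (adjusted p = 0.049), and leaving out any 1 of the 6 lines ended that call (adjusted p up to 0.142). ATG14, another BECN1 partner, rose by 0.60 with vorinostat at 14 days (adjusted p = 0.0186), lost without SUDHL4 or TOLEDO (adjusted p up to 0.125). ATG13, the partner of ULK1, and WIPI2 were called in none of the 4 comparisons with DMSO in edgeR's test, with log2 fold changes from -0.25 to 0.03 for ATG13 and from -0.08 to 0.30 for WIPI2. Without PFEIFFER, WIPI2 passed with vorinostat at 6 h (0.45, adjusted p = 0.00674).

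The enzymes that attach ATG8 proteins to lipid did not move together. ATG4A, a protease that trims ATG8 proteins, rose by 0.72 with each drug at 6 h (adjusted p = 0.000515 for pracinostat and 0.000683 for vorinostat) and by 0.53 with vorinostat at 14 days (adjusted p = 0.00697), the last call being lost without TOLEDO (adjusted p = 0.0597). ATG3, the E2-like enzyme, rose by 0.48 with pracinostat (adjusted p = 0.0065) and by 0.36 with vorinostat (adjusted p = 0.0414), the latter lost without OCILY1, PFEIFFER, SUDHL4 or SUDHL6 (adjusted p up to 0.178). ATG7, the E1-like enzyme that acts before ATG3, fell. Its level in DMSO had a lowest value of 10.4 CPM, a median of 19.3 and a highest value of 23.8, and with pracinostat these were 6.45, 12.3 and 16.8 CPM.

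The vorinostat libraries held 12.7 CPM of ATG7 in OCILY1, 10.2 in PFEIFFER, 12.2 in SUDHL4, 6.60 in TOLEDO and 12.8 in WSUDLCL2, each below DMSO of the same line. ATG7 fell by 0.69 with pracinostat (SE 0.17, adjusted p = 0.00451) and by 0.72 with vorinostat (SE 0.18, adjusted p = 0.00454), and at 14 days its log2 fold changes were 0.02 and -0.10 (adjusted p = 0.952 and 0.695). Of the 3 proteins that form the ATG12 to ATG5 conjugate with its partner, ATG5 rose with pracinostat at 6 h by 0.46 (adjusted p = 0.0061; with vorinostat 0.0732, and 0.0487 without WSUDLCL2), ATG16L1 rose with vorinostat by 0.42 at 6 h (adjusted p = 0.0101) and by 0.42 at 14 days (adjusted p = 0.0255), and ATG12 was not called in any comparison. The 14-day call of ATG16L1 was lost without OCILY1, PFEIFFER or SUDHL4 (adjusted p up to 0.162). The exons of ATG3, ATG7 and ATG12, as well as those of ATG13, BECN1, UVRAG, MCOLN1 and HEXA, overlap exons of another gene in the count table.

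Of the 5 genes for ATG8 proteins and the cargo receptor SQSTM1 that were analysed, GABARAPL1, GABARAPL2 and MAP1LC3B rose with both drugs at 6 h. GABARAPL1 (ENSG00000139112, chr12:10212458-10223130, plus strand) differed most between lines: in DMSO at 6 h it stood at 0.442 CPM in SUDHL6, 1.27 in SUDHL4, 2.79 in WSUDLCL2, 9.50 in TOLEDO, 11.5 in PFEIFFER and 42.9 in OCILY1. With pracinostat the same lines in that order held 2.94, 3.67, 17.6, 51.8, 31.5 and 42.4 CPM. All lines but OCILY1 were higher with pracinostat, and OCILY1 stayed near its solvent level. The log2 fold change was 1.45 with pracinostat (SE 0.36, adjusted p = 0.00473) and 1.81 with vorinostat (SE 0.36, adjusted p = 0.000989).

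At 14 days GABARAPL1 went from 73.3 CPM in DMSOP to 35.9 with pracinostat in OCILY1, while PFEIFFER went from 20.9 to 33.1, SUDHL4 from 1.12 to 4.08, TOLEDO from 16.0 to 32.1 and WSUDLCL2 from 6.60 to 35.7. OCILY1 was also the one line lower with vorinostat than with DMSOV, at 55.1 against 72.2 CPM. The log2 fold changes over all 5 lines were 0.99 with pracinostat (SE 0.48, adjusted p = 0.149) and 1.02 with vorinostat (SE 0.48, adjusted p = 0.108), and without OCILY1 they were 1.52 (adjusted p = 0.0341) and 1.47 (adjusted p = 0.0213), past the threshold. GABARAPL1 shares near-identical sequence with a pseudogene, and MAP1LC3B with a second LC3 gene, so their levels depend on how such reads were assigned, for which the sources used here hold no setting.

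MAP1LC3B, the LC3 protein most used as an autophagosome marker (chr16:87383995-87404779, plus strand), had a lowest, median and highest level of 60.5, 141 and 274 CPM in DMSO at 6 h and of 141, 232 and 344 CPM with pracinostat. The vorinostat libraries held 292 CPM in OCILY1, 309 in PFEIFFER, 468 in SUDHL4, 225 in TOLEDO and 362 in WSUDLCL2. TOLEDO was the lowest line in both the DMSO and the drug groups, and every line was higher with drug. Pracinostat raised it by 0.65 (SE 0.14, adjusted p = 0.00178) and vorinostat by 1.10 (SE 0.15, adjusted p = 3.03e-05). At 14 days the values were -0.14 (adjusted p = 0.679) and 0.32 (adjusted p = 0.265). FBXO31 on the other strand overlaps its exons.

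GABARAPL2 had a lowest, median and highest level of 32.8, 64.9 and 117 CPM in DMSO at 6 h and of 56.5, 121 and 236 CPM with pracinostat. Each line was higher with either drug, and the groups overlapped. The log2 fold changes of GABARAPL2 at 6 h were 0.82 (SE 0.11, adjusted p = 4.02e-05) and 0.68 (SE 0.12, adjusted p = 0.000241). At 14 days vorinostat raised it by 0.75 (SE 0.13, adjusted p = 0.000426), while pracinostat gave 0.25 (adjusted p = 0.162). MAP1LC3A was near the floor in SUDHL4, SUDHL6, TOLEDO and WSUDLCL2, at 0.153 to 0.559 CPM in DMSO at 6 h, and stood at 3.07 CPM in OCILY1 and 5.07 in PFEIFFER. MAP1LC3A was not called in any comparison with DMSO, although pracinostat at 6 h passed without WSUDLCL2 (1.21, adjusted p = 0.0438).

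SQSTM1, a cargo receptor that is itself degraded by autophagy, was not called at 6 h, with log2 fold changes of -0.21 with pracinostat (adjusted p = 0.349) and 0.07 with vorinostat (adjusted p = 0.779). At 14 days DMSOV held 34.4 CPM in OCILY1, 57.8 in PFEIFFER, 25.3 in SUDHL4, 32.2 in TOLEDO and 47.4 in WSUDLCL2, and vorinostat 32.0, 73.2, 43.0, 54.9 and 80.7 CPM in that order. SQSTM1 was higher with vorinostat in 4 of the 5 lines and slightly lower in OCILY1. Its rise was 0.55 with vorinostat (SE 0.16, adjusted p = 0.0141), lost without SUDHL4, TOLEDO or WSUDLCL2 (adjusted p up to 0.0894) and with DMSOP as control, and the pracinostat value was -0.21 (adjusted p = 0.345). MGAT4B and MRNIP on the other strand overlap its exons.

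Lysosomal genes of cholesterol export divided at 14 days. NPC2, the soluble carrier that takes cholesterol from the lysosome's interior (chr14:74476192-74494177, minus strand), had a lowest, median and highest level of 14.0, 18.5 and 27.1 CPM in DMSO at 6 h and of 28.1, 37.5 and 47.3 CPM with pracinostat. No pracinostat library of NPC2 reached down to the DMSO range, and the vorinostat range of 27.7 to 51.3 CPM also lay above it. It rose by 0.92 with pracinostat (SE 0.15, adjusted p = 0.000243) and 1.05 with vorinostat (SE 0.16, adjusted p = 0.000105). At 14 days NPC2 went from 14.9 to 31.3 CPM in OCILY1 with vorinostat, from 20.6 to 43.8 in PFEIFFER, from 24.9 to 72.4 in SUDHL4, from 17.8 to 98.6 in TOLEDO and from 18.0 to 31.0 in WSUDLCL2. Again the vorinostat and DMSOV libraries did not overlap, and the rise was 1.52 (SE 0.26, adjusted p = 0.000389), with 0.68 for pracinostat (SE 0.25, adjusted p = 0.0601, and 0.0215 without WSUDLCL2). ISCA2 overlaps the exons of NPC2.

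NPC1, the membrane protein that receives cholesterol from NPC2 (chr18:23506184-23586898, minus strand), rose at 6 h and was lower in every line at 14 days. Its lowest, median and highest levels at 6 h were 27.3, 36.4 and 54.4 CPM in DMSO and 37.8, 53.6 and 77.3 CPM with pracinostat. The rises were 0.48 with pracinostat (SE 0.12, adjusted p = 0.00389) and 0.72 with vorinostat (SE 0.12, adjusted p = 0.000253), with overlapping groups. At 14 days NPC1 went from 47.9 CPM in DMSOV to 30.8 with vorinostat in OCILY1, from 44.5 to 29.7 in PFEIFFER, from 54.0 to 44.7 in SUDHL4, from 51.6 to 41.3 in TOLEDO and from 50.8 to 33.8 in WSUDLCL2. NPC1 fell by 0.42 with vorinostat (SE 0.16, adjusted p = 0.0432), lost without OCILY1, PFEIFFER or TOLEDO (adjusted p up to 0.150), and the pracinostat value was -0.43 (SE 0.15, adjusted p = 0.055, and 0.029 without WSUDLCL2). RMC1 on the other strand overlaps its exons.

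LAMP1 and LAMP2 are the most abundant glycoproteins of the lysosomal membrane. LAMP1 (ENSG00000185896, chr13:113297241-113323672, plus strand) had a lowest, median and highest level of 92.7, 136 and 195 CPM in DMSO at 6 h and of 105, 157 and 232 CPM with pracinostat. Every line was higher with drug, and the groups overlapped. LAMP1 rose with vorinostat at 6 h by 0.29 (SE 0.10, adjusted p = 0.0276), and its pracinostat value was 0.19 (adjusted p = 0.126). At 14 days the vorinostat value was 0.48 (SE 0.15, adjusted p = 0.0202) and the pracinostat value 0.35 (adjusted p = 0.0983). Both vorinostat calls were lost without OCILY1, SUDHL4 or WSUDLCL2 (adjusted p up to 0.119 at 6 h and 0.107 at 14 days). LAMP2 rose at 6 h by 0.58 with pracinostat (adjusted p = 0.000468) and by 0.67 with vorinostat (adjusted p = 0.000185), and was not called at 14 days. MCOLN1, the calcium channel of the lysosome, rose with vorinostat at 6 h by 0.46 (adjusted p = 0.0379), lost without OCILY1, PFEIFFER, SUDHL4 or TOLEDO (adjusted p up to 0.134).

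Both analysed genes of the pump that acidifies the lysosome rose with each drug at 6 h. ATP6V1H had a lowest, median and highest level of 29.6, 76.3 and 105 CPM in DMSO at 6 h and of 53.1, 130 and 224 CPM with pracinostat. TOLEDO was the lowest line in every group, and each line was higher with either drug at 6 h. The log2 fold changes of ATP6V1H were 0.79 with pracinostat (SE 0.11, adjusted p = 3.95e-05) and 0.76 with vorinostat (SE 0.11, adjusted p = 6.76e-05) at 6 h, then 0.40 (SE 0.11, adjusted p = 0.0162) and 0.48 (SE 0.11, adjusted p = 0.00314) at 14 days. The 14-day pracinostat call was lost without OCILY1, PFEIFFER, SUDHL4 or WSUDLCL2 (adjusted p up to 0.0649) and with scaling by library totals.

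ATP6V0D1 (chr16:67438014-67481237, minus strand) stood in DMSO at 6 h at 26.7 CPM in TOLEDO and between 125 and 150.1 CPM in the other 5 lines. With pracinostat it was 67.9 CPM in TOLEDO and between 211 and 240.2 in the others. Pracinostat raised it by 0.76 (SE 0.12, adjusted p = 0.000204) and vorinostat by 0.88 (SE 0.13, adjusted p = 7.23e-05). At 14 days it went from 22.9 CPM in DMSOV to 74.7 with vorinostat in TOLEDO, from 126 to 176 in OCILY1, from 126 to 161 in PFEIFFER, from 101 to 260.2 in SUDHL4 and from 101 to 241 in WSUDLCL2. The rise with vorinostat was 1.10 (SE 0.20, adjusted p = 0.000557), and with pracinostat the value was 0.54 (SE 0.19, adjusted p = 0.0521).

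Of the 5 hydrolase genes analysed, GLA, NEU1 and CTSB rose with both drugs at 6 h. GLA, the alpha-galactosidase that is lost in Fabry disease (ENSG00000102393, chrX:101397803-101408012, minus strand), had a lowest, median and highest level of 26.7, 28.8 and 50.3 CPM in DMSO at 6 h and of 45.1, 66.1 and 113 CPM with pracinostat. With vorinostat it reached 66.9 CPM in OCILY1, 66.0 in PFEIFFER, 76.6 in SUDHL4, 143 in TOLEDO and 52.5 in WSUDLCL2, each above all DMSO libraries. Among the 34 genes GLA had the smallest adjusted p at 6 h, with rises of 1.05 (SE 0.12, adjusted p = 9.26e-06) and 1.23 (SE 0.12, adjusted p = 2.24e-06). At 14 days the pracinostat level was below DMSOP in all 5 lines, with a log2 fold change of -0.30 (SE 0.17, adjusted p = 0.201), and the vorinostat value was 0.21 (SE 0.17, adjusted p = 0.341).

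NEU1, a sialidase, had a lowest, median and highest level of 17.9, 35.0 and 109 CPM in DMSO at 6 h and of 44.5, 70.0 and 156 CPM with pracinostat, with SUDHL6 the highest line in both. It rose by 0.84 with pracinostat (SE 0.16, adjusted p = 0.000746), by 1.18 with vorinostat (SE 0.17, adjusted p = 6.61e-05) and by 0.73 with vorinostat at 14 days (SE 0.19, adjusted p = 0.00631). The last call was lost with DMSOP as the control. CTSB, a cysteine cathepsin, rose by 0.59 with each drug at 6 h (adjusted p = 0.00212 and 0.00261), and at 14 days it passed with vorinostat when PFEIFFER was left out (0.68, adjusted p = 0.0432). CTSD, an aspartic cathepsin, was not called at 6 h and rose by 0.89 with vorinostat at 14 days (SE 0.34, adjusted p = 0.0476), a call lost without PFEIFFER, SUDHL4, TOLEDO or WSUDLCL2 (adjusted p up to 0.187). HEXA, a subunit of beta-hexosaminidase, was not called in any of these comparisons.

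**Figure D3:**
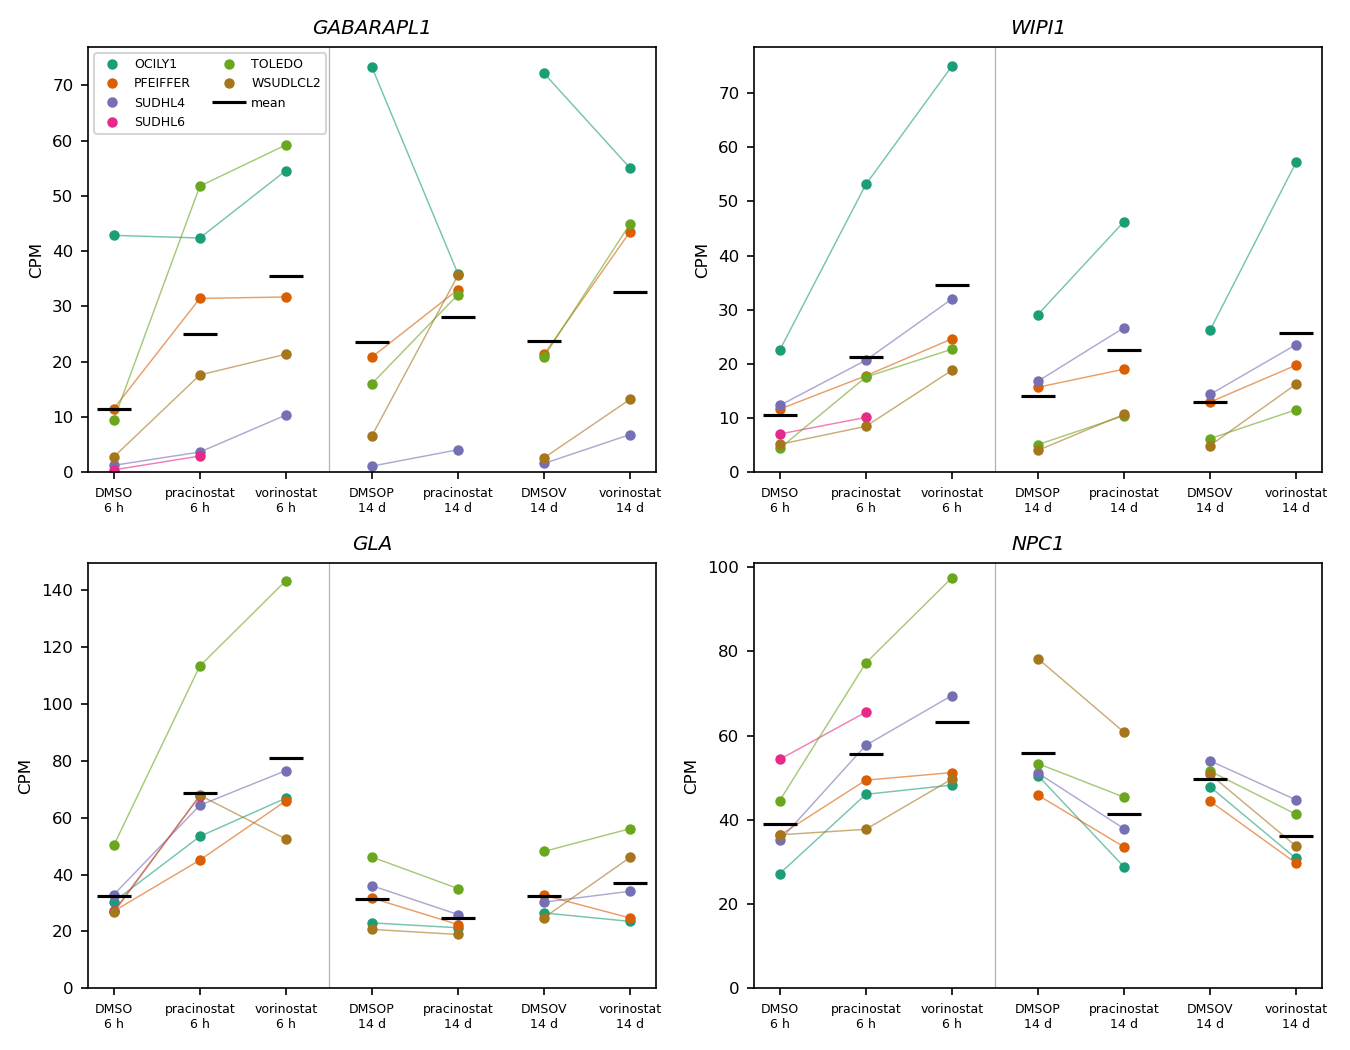
CPM of GABARAPL1, WIPI1, GLA and NPC1 in every library; each point is 1 library, coloured by line, thin lines join libraries of the same line at the same time, and black bars are group means. WIPI1 is higher with drug in each line at both times, NPC1 is higher at 6 h and lower at 14 days, and OCILY1 is the line in which GABARAPL1 is not higher with pracinostat.

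The promoters of the genes were searched for CACGTG, the core of the element that TFEB and TFE3 are known to bind, and for its longer form TCACGTGA. Both motifs read the same on either strand, and each TCACGTGA holds a CACGTG. Windows ran from 250 bases before to 50 bases after each RefSeq start on GRCh38.p14, and 30 of the 36 genes had a window. CACGTG was found in 7 of the 30 (23.3%, exact 95% binomial interval 9.93 to 42.3%), against 8.77% of 27305 genes with a window. TCACGTGA was found in 4 of the 30, against 1.18% of all genes. The 7 genes were ATG3, ATG14, LAMP1, MCOLN1, ATP6V0D1, NEU1 and CTSD. A match is a description of the sequence and not evidence of binding. The list holds lysosomal genes, near many of which this motif is already known, so its higher share is not an independent result. The windows of LAMP1 (chr13:113296989-113297288, plus strand) and MCOLN1 (chr19:7522374-7522673, plus strand) are shown whole because they hold the most matches to the longer form, with each CACGTG in capitals.
LAMP1 promoter: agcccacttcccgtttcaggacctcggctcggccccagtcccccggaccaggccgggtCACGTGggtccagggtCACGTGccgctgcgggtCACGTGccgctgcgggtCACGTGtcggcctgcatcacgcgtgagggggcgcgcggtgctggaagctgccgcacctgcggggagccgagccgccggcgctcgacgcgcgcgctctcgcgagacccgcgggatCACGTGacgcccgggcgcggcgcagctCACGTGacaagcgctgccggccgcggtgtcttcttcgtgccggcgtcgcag
MCOLN1 promoter: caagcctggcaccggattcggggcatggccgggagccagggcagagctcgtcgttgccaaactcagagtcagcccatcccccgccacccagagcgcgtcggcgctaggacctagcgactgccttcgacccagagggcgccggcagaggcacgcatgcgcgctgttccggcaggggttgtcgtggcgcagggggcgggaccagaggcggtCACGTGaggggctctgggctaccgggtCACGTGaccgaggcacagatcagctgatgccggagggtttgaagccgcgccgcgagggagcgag

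LAMP1 held 6 matches and MCOLN1 held 2. For the other genes the bases around a match are shown, so that its neighbours can be compared, 5′ to 3′ along the gene's own strand (minus for all 5) and with CACGTG in capitals. They lie at chr16:67481199-67481228 (ATP6V0D1), chr3:112561940-112561969 (ATG3), chr6:31862930-31862959 (NEU1), chr14:55411834-55411863 (ATG14) and chr11:1763957-1763986 (CTSD). The ATP6V0D1 stretch and the one shown for ATG3 hold the longer form, and those of NEU1, ATG14 and CTSD do not.
ATP6V0D1: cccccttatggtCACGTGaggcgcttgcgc
ATG3: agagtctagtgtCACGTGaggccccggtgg
NEU1: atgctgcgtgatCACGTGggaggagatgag
ATG14: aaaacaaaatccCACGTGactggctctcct
CTSD: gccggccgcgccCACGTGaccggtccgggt

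The 7 genes did not move as 1 group. ATP6V0D1, NEU1 and ATG3 rose with both drugs at 6 h, LAMP1 and MCOLN1 rose at 6 h with vorinostat, and ATG14 and CTSD were called at 14 days with vorinostat and not at 6 h. At 6 h, 3 of the 7 rose with pracinostat, beside 18 of all 34 genes, and 5 of the 7 rose with vorinostat, beside 21 of the 34. The 34 include 6 genes without a window (UVRAG, MAP1LC3A, LAMP2, ATP6V1H, CTSB and HEXA), which could not be among the 7.

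Direction per line was examined for all 34 genes in the plot of differences within each line. At 6 h with pracinostat, 18 genes were higher in all 6 lines and 2 (UVRAG and TFEB) were lower in all 6. With vorinostat at 6 h, 21 were higher in all 5 lines and 4 (ATG13, UVRAG, ATG7 and TFEB) were lower in all 5. At 14 days 10 genes were higher in all 5 lines with each drug, while ATG12, NPC1 and GLA were lower in all 5 with pracinostat and ATG12 and NPC1 with vorinostat. In single lines, 49.0 to 54.0% of all genes with a mean of at least 5 CPM were higher with pracinostat at 6 h. With vorinostat this share was 49.1 to 52.9%, and at 14 days the shares were 42.9 to 47.9% and 44.8 to 48.4%. The share of all genes with the same direction in every line was not computed, so the counts of the 34 have no such background beside them.

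Lines differed most with vorinostat at 14 days. Over the 33 genes with a mean of at least 5 CPM, the median log2 difference with vorinostat at 14 days was -0.02 in OCILY1, 0.32 in TOLEDO, 0.35 in PFEIFFER, 0.65 in WSUDLCL2 and 0.69 in SUDHL4, while the median over all genes was between -0.12 and -0.01 in these lines. With pracinostat at 14 days the median of the 33 genes was 0.02 in OCILY1, 0.04 in TOLEDO, 0.08 in WSUDLCL2, 0.23 in PFEIFFER and 0.41 in SUDHL4. At 6 h the same medians lay closer together, from 0.28 in SUDHL4 to 0.60 in TOLEDO with pracinostat and from 0.47 in PFEIFFER to 0.63 in TOLEDO with vorinostat. OCILY1 thus had the lowest value of the 5 lines at 14 days with each drug and no such place at 6 h. With pracinostat it lay only narrowly below TOLEDO and WSUDLCL2. These are single libraries per line, and no test compares the lines.

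**Figure D4:**
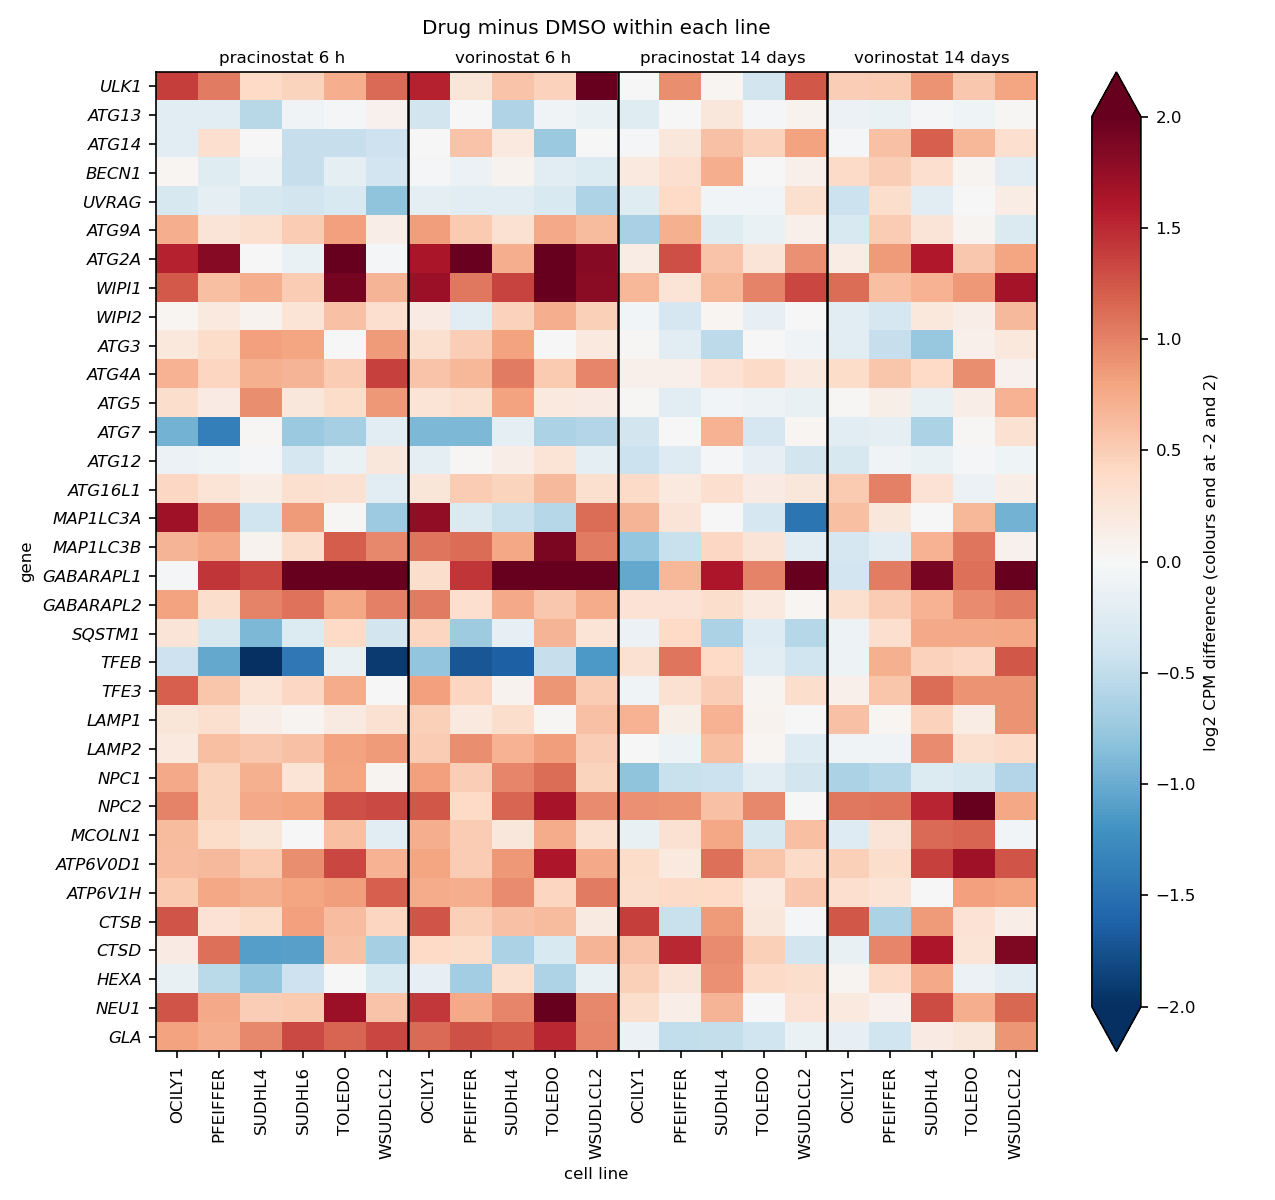
Log2 CPM difference between drug and DMSO within each line (colour; red higher, blue lower) for the 34 genes (rows) in each line (columns), grouped by drug and time. TFEB is blue in every line at 6 h, NPC1 turns from red at 6 h to blue at 14 days, and GABARAPL1 is pale or blue in OCILY1 alone at 14 days.

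The difference between the 6 h and 14-day effects was tested for each gene in one fit over all 37 libraries. With pracinostat 13 of the 34 effects differed between the times, 5 of them higher at 14 days and 8 lower, against 19.4% of 15420 genes (9.53% higher and 9.83% lower). Scaling by library totals changed that split to 1 higher and 12 lower, beside 1028 and 2316 of all genes. With vorinostat 5 differed, 1 higher and 4 lower, against 23.4% (11.2% and 12.2%). Here scaling by library totals gave 1 and 7, beside 1256 and 2573 of all genes. The largest fall in effect was that of GLA with pracinostat, at -1.37 (SE 0.21, adjusted p = 6.8e-05), and its vorinostat value was -1.06 (SE 0.21, adjusted p = 0.000701). NPC1 followed with -0.93 for pracinostat (SE 0.19, adjusted p = 0.000988) and -1.18 for vorinostat (SE 0.19, adjusted p = 0.000104). For TFEB, GLA and NPC1 the difference in effect held without any 1 line with both drugs. The other 10 pracinostat calls and the other 2 vorinostat calls, those of ATG3 and MAP1LC3B, were each lost without at least 1 line.

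MAP1LC3B had a lower effect at 14 days than at 6 h with both drugs, by -0.81 (adjusted p = 0.0304) and -0.82 (adjusted p = 0.0307), lost without OCILY1, PFEIFFER or WSUDLCL2 (adjusted p up to 0.143 and 0.163). ATG7 was among those higher at 14 days with pracinostat, by 0.68 (adjusted p = 0.0445), and this call was lost without any 1 of the 6 lines (adjusted p up to 0.168). WIPI1 was not called, with -0.18 for pracinostat (95% interval -0.71 to 0.35) and -0.55 for vorinostat (95% interval -1.10 to 0.00).

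**Figure D5:**
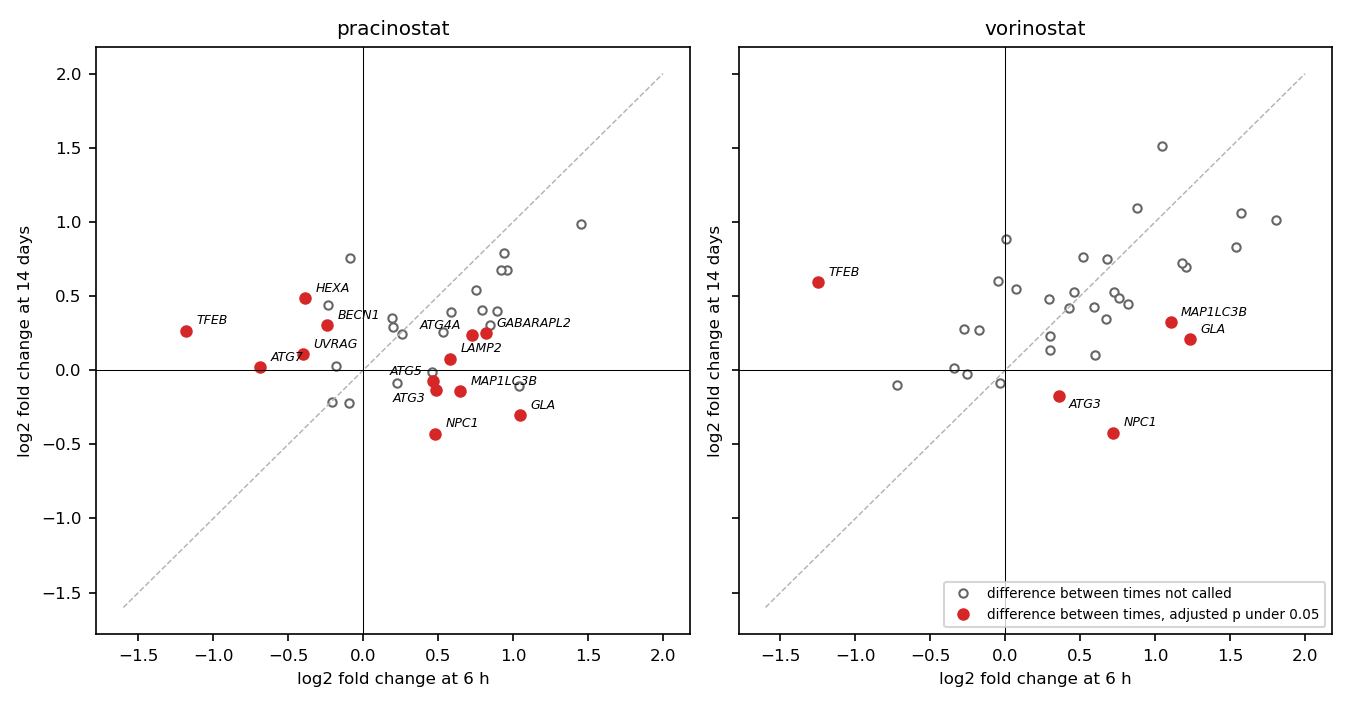
Log2 fold change at 14 days (vertical axis) against that at 6 h (horizontal axis) for each of the 34 genes, for pracinostat (left) and vorinostat (right); red points are genes whose effect differed between the times at an adjusted p under 0.05, and the dashed line marks equal effects. TFEB lies at the upper left with both drugs, at -1.18 and 0.27 for pracinostat, and NPC1 and GLA lie well below the line.

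The 2 hydroxamic acids were set against each other at each time, as 1 pair over 34 genes. At 6 h 0 of the 34 genes differed, against 0.0152% of all genes (0.00759% higher and 0.00759% lower), with 2 at an unadjusted p under 0.05, where 9.21% of all genes were, and 0 by DESeq2. Those 2 were WIPI1, lower with pracinostat by -0.63 (95% interval -1.02 to -0.24, adjusted p = 0.361), and MAP1LC3B, by -0.46 (95% interval -0.77 to -0.15, adjusted p = 0.387). The interval for TFEB was -0.45 to 0.58 around 0.07, and for GLA -0.45 to 0.08 around -0.19. At 14 days the drug effects, each against its own solvent culture, differed in 0 of the 34 genes and in 0% of all genes, with 5 of the 34 at an unadjusted p under 0.05, where 3.93% of all genes were, and 0 by DESeq2.

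All 5 of these were lower with pracinostat: NPC2 by -0.84 (95% interval -1.59 to -0.09), SQSTM1 by -0.76 (95% interval -1.24 to -0.28), GLA by -0.51 (95% interval -1.02 to -0.01), TFE3 by -0.51 (95% interval -0.96 to -0.05) and GABARAPL2 by -0.50 (95% interval -0.88 to -0.12). For these 5 genes the intervals leave room for differences of about the size of the drug effects themselves or more. At 6 h the intervals given for TFEB and GLA stayed well short of the drug effects on these genes. Those given for WIPI1 and MAP1LC3B at 6 h reached past the size of the pracinostat effect. Equal action is thus not shown at either time, and the doses are unknown.

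The wider pathway was read from 171 further genes in 9 lists, of which 160 were tested at each time. At 6 h pracinostat raised 48 of these and lowered 21 (43.1% called, against 40.1% of all genes), while vorinostat raised 57 and lowered 25 (51.2%, against 43.9%). At 14 days pracinostat raised 31 and lowered 4 (21.9%, against 22.6%), and vorinostat raised 52 and lowered 12 (40.0%, against 37.6%). The shares called in either direction thus lay near those of all genes, apart from vorinostat at 6 h, where the share was 51.2%. Direction was less even than in all genes, as increases outnumbered decreases by more in each comparison. Of all genes tested at 6 h, 21.2% were higher and 18.9% lower with pracinostat, and 23.1% and 20.9% with vorinostat. For 14 days the same shares were 12.3% and 10.2% with pracinostat, and 20.4% and 17.2% with vorinostat. No test compared the lists with all genes. Among the 17 other subunits of the proton pump, 10 rose and 2 fell with pracinostat at 6 h, 9 and 1 with vorinostat, 7 and 1 with pracinostat at 14 days and 8 and 1 with vorinostat. The shares of these subunits called were 70.6%, 58.8%, 47.1% and 52.9% in that order, against 40.1%, 43.9%, 22.6% and 37.6% of all genes. ATP6V1G2 rose by 1.37 and 1.34 at 6 h and by 1.28 and 1.47 at 14 days (pracinostat, then vorinostat), while ATP6V1E2 fell by 1.12 and 1.46 at 6 h. These are isoform subunits of the pump's cytosolic part.

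Of 40 other lysosomal hydrolases and activators, 11 rose and 8 fell with pracinostat at 6 h, and 12 rose and 0 fell at 14 days; with vorinostat the counts were 15 and 8, then 15 and 3. For pracinostat that is 47.5% and 30.0% called, against 40.1% and 22.6% of all genes, and for vorinostat 57.5% and 45.0%, against 43.9% and 37.6%. CTSO, a cysteine cathepsin, was the widest swing, since it fell by 3.30 with pracinostat (SE 0.44, adjusted p = 3.71e-05) and by 3.45 with vorinostat (SE 0.46, adjusted p = 2.73e-05) at 6 h, and rose by 2.50 (SE 0.54, adjusted p = 0.00476) and 1.80 (SE 0.56, adjusted p = 0.0182) at 14 days. ARSB, a sulfatase, fell by 1.98 and 2.39 at 6 h. GAA, the acid alpha-glucosidase, rose by 1.52 with pracinostat at 14 days (adjusted p = 0.00245).

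Among 13 autophagy receptors tested, 4 rose and 2 fell with pracinostat at 6 h (46.2% called, against 40.1% of all genes), 4 and 3 with vorinostat (53.8%, against 43.9%), 1 and 0 with pracinostat at 14 days (7.69%, against 22.6%) and 4 and 0 with vorinostat (30.8%, against 37.6%). OPTN rose by 1.90 with pracinostat at 6 h (SE 0.34, adjusted p = 0.000703), and RETREG1, a receptor for endoplasmic reticulum, rose by 2.17 with pracinostat at 14 days (adjusted p = 0.00893). In the list of genes around TFEB, 7 of 24 rose and 4 fell with pracinostat at 6 h (45.8%, against 40.1% of all genes), and 7 rose and 6 fell with vorinostat (54.2%, against 43.9%). At 14 days 5 of 25 rose and 2 fell with pracinostat (28.0%, against 22.6%), and 11 rose and 5 fell with vorinostat (64.0%, against 37.6%). The genes that rose with vorinostat at 14 days included RRAGD, a GTPase of the mTORC1 pathway (1.94, adjusted p = 0.00194), and MITF, another member of the TFEB family (2.88, adjusted p = 0.0149). FNIP2, a folliculin partner, rose by 2.09 with pracinostat at 14 days (adjusted p = 0.0015). SORT1, a sorting receptor for lysosomal proteins, rose by 1.79 and 2.00 at 6 h (pracinostat, then vorinostat). LAMP3, a relative of LAMP1 found in activated immune cells, fell by 2.43 with vorinostat at 14 days (SE 0.42, adjusted p = 0.000436). The genes named from the wider lists are those with the largest changes. Their levels and values per line were not examined, nor whether their calls held without any 1 line.

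Levels between genes were compared per kilobase of exon in the 6 DMSO libraries at 6 h. MAP1LC3B stood highest at 28.6 ± 13.4 CPM per kilobase (SD, n = 6), followed by LAMP1 at 25.1 ± 6.68 and GABARAPL2 at 23.9 ± 10.2, and these 3 did not differ beyond their spread. TFEB stood at 11.6 ± 7.47 CPM per kilobase and TFE3 at 5.65 ± 1.59. HEXA (0.932 ± 0.399) and MAP1LC3A (0.889 ± 1.16) were lowest by this measure. The length used is that of all annotated exons of a gene merged, whichever transcript is made. It was 12611 bases for HEXA, the longest of the 34, so the place of HEXA depends on the annotation. The ratio of the highest to the lowest line was 97.0 for GABARAPL1 (with 4 counts in the lowest library), 13.3 for ULK1, 8.66 for CTSB, 6.09 for NEU1 and 6.01 for TFEB, and 1.31 for ATG5, the most even of the 34. For MAP1LC3A no ratio is given, since its lowest library held 1 count.

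Other properties of the libraries moved with the same comparisons, and their part in the results above was not tested. All 8 B cell markers were detected, with EBF1 lowest (0.274 CPM in PFEIFFER in DMSO at 6 h); 6 of the 8 fell with pracinostat and 7 with vorinostat at 6 h, and 3 rose with each drug at 14 days. The summed level of B cell markers was 2890 to 7048 CPM in DMSO at 6 h and 2200 to 3795 CPM with pracinostat. Of 16 myeloid markers 4 were analysed, and 3 of these were tested at 14 days and rose with both drugs. Their sum was at most 4.05 CPM in DMSOP and 3.90 in DMSOV, and reached 21.2 CPM with pracinostat and 37.1 CPM with vorinostat, while TYROBP, a defining marker, stood at no more than 1.63 CPM in the 14-day drug libraries. Of 7 T cell markers 5 were analysed, with a sum of 1.24 to 1113 CPM in DMSOP (median 29.1) and 1.25 to 649 CPM with pracinostat at 14 days (median 56.8). The highest sum, in PFEIFFER, was lower with pracinostat, and nearly all of it was CD8A (1112 and 643 CPM). Of 6 stromal markers 4 were analysed, with medians of 4.66 and 21.4 CPM, and LUM was at 0 in every DMSO library. The share of counts from mitochondrially encoded genes had a median of 7.19% in DMSOP and 8.86% in DMSOV, against 11.5% with pracinostat and 13.0% with vorinostat at 14 days. In bulk libraries a change in the mix of cells and a change in RNA per cell cannot be told apart.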

How the data were processed

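RNA was sequenced from 6 lymphoma lines; 38 samples are listed, and the 37 with a column in the count table were analysed. The authors deposited raw read counts per gene, and a second table of log2 CPM values that equals edgeR's TMM-scaled log2 CPM computed here from those counts. STAR, edgeR and hg38 are named in the submitters' processing notes; annotation release, versions and strand setting: not given in the sources used here. Gene positions came from GENCODE 29 (GRCh38), promoter sequences from the RefSeq table for GRCh38.p14.

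Counts were tested with edgeR 4.0.16 (R 4.3.3): TMM scaling, genes kept by filterByExpr (minimum count 10, total 15), a robust quasi-likelihood fit (a two-sided F test) with cell line as a block, each time fitted on its own groups, and Benjamini-Hochberg adjustment over all genes tested (13177 at 6 h, 14037 at 14 days). Changes between times were fitted over all libraries with a block for each line and time (15420 genes). CPM values are TMM-scaled; within-line log2 differences used a prior count of 2. Depth was 3.19 to 8.92 M counts, so 3 counts equal 0.336 to 0.941 CPM. limma 3.58.1 and DESeq2 1.42.0 were alternatives, together with other scaling, no filter, no block, other solvent controls, only the groups compared, and leaving out each line. Scripts were checked on simulated counts.

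Samples of the same line come from the same cells and so pair across groups: all 37 libraries correlated best with their own line, and deviations from the group means correlated at 0.604 to 0.982 over 46 pairs of same-line libraries.

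The members and lists were chosen with earlier results of these data known. Values per line are given, for each comparison, for at most 6 called members that rose most and 6 that fell most, and for TFEB, TFE3, SQSTM1, the ATG8 family, LAMP1 and ATP6V1H in every case, and up to 2 genes each way from each wider list; other members appear by their counts or in short.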

Additional observations from a re-analysis of the deposited data

Results flagged for a closer look

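Of 140 sets of per-line differences examined, 4 held a line far from the others; chance gives this in about 1 of 20 sets. UVRAG fell most in WSUDLCL2 at 6 h, by a log2 difference of -0.80 with pracinostat (the other lines lay between -0.37 and -0.18) and -0.62 with vorinostat (the others between -0.31 and -0.19). Both differences use the same DMSO library of WSUDLCL2, at 97.2 CPM the highest of the 6, so these flags are not independent. ATG4A in WSUDLCL2 stood at 1.37 with pracinostat at 6 h, against 0.43 to 0.71 in the other lines. ATG5 in SUDHL4 stood at 0.81 with vorinostat at 6 h, against 0.16 to 0.33.

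A total of 18 effects differed between 6 h and 14 days in the interaction test. With pracinostat the effect was higher at 14 days, as a log2 difference, for TFEB by 1.42, HEXA by 0.85, ATG7 by 0.68, BECN1 by 0.52 and UVRAG by 0.49. It was lower for GLA (-1.37), NPC1 (-0.93), MAP1LC3B (-0.81), ATG3 (-0.64), GABARAPL2 (-0.59), ATG5 (-0.56), LAMP2 (-0.52) and ATG4A (-0.51). With vorinostat it was higher for TFEB by 1.81 and lower for NPC1 (-1.18), GLA (-1.06), MAP1LC3B (-0.82) and ATG3 (-0.56).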

How the results depend on the processing

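Over 2375 alternative values of the genes' fold changes, 0 called values reversed, 209 lost their call and 64 gained one. The counts of genes called were 22 and 24 at 6 h (pracinostat, then vorinostat), 3 and 17 at 14 days, and 13 and 5 for the change between times. Without the replicate block, which sets the pairing by line aside, they were 3, 6, 0, 2, 0 and 0 in that order. Over all genes tested the counts without the block were 577, 1106, 8, 696, 75 and 252. With the block they were 5289, 5790, 3167, 5274, 2986 and 3605. For the genes described, DESeq2 gave 7 for pracinostat at 14 days and 8 for the vorinostat change between times, where scaling by library totals also gave 8. Over all genes DESeq2 gave 3739 and 3901 in these comparisons, and scaling by library totals gave 3829 in the second. Fitting only the 2 groups compared gave 5 and 7 of the genes described at 14 days, the other DMSO set 11 and 11, and the mean of both sets 12 for pracinostat. Over all genes these fits gave 1950 and 2680, then 4120 and 4720, and then 5008. For the genes described, leaving out each line gave 20 to 23 and 20 to 24 at 6 h, 1 to 3 and 10 to 15 at 14 days, and 5 to 9 and 3 to 6 for the change between times. The lowest counts came without PFEIFFER for pracinostat at 14 days (1), without SUDHL4 or TOLEDO for vorinostat at 14 days (10), without SUDHL4 for the pracinostat change between times (5) and without OCILY1 or PFEIFFER for the vorinostat change (3); the pracinostat change also gave 7 without OCILY1 or WSUDLCL2, 6 without PFEIFFER and 8 without SUDHL6. Over all genes, leaving out each line gave 4312 to 4891 and 4703 to 5626 calls at 6 h. At 14 days it gave 1424 to 2766 and 3961 to 4636, and for the change between times 1599 to 2892 and 2574 to 3417. Scaling by library totals shifted the all-gene median from 0.03 to 0.13 with pracinostat at 6 h and from 0.12 to 0.01 with vorinostat at 14 days, with the medians of the genes described moving from 0.48 to 0.58 and from 0.46 to 0.38. For pracinostat at 14 days it gave 2 higher and 2 lower in place of 3 and 0. Over all genes it gave 1499 higher and 1727 lower there, in place of 1733 and 1434. Calls without 1 line held for 20 of 22 and 19 of 24 genes at 6 h and for 1 of 3 and 8 of 17 at 14 days. The cause of these shifts was not tested. MAP1LC3A, at or under 3 counts in several libraries, is the gene that depth limits most.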
